A study of Mus musculus with 2 samples.

Results

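The genes of the HSP70, HSP90, HSP60 and J-domain chaperone families were described in the heart. The members were all genes whose symbol begins with Hspa, Hsp90, Hsph, Hspd, Hspe or Dnaj, without the 14 pseudogenes whose symbol carries -ps, which gave 64 of the 55536 genes in the tables. The choice used symbols only and no measured value, but it was made with earlier results of these data known. Of the 64 genes, 45 encode J-domain proteins and 19 encode HSP70, HSP110, HSP90, HSP60 or HSP10 proteins. The hearts came from 2 female B6CASTF1/J mice aged 2 months, an F1 hybrid between C57BL/6J and CAST/EiJ, and no treatment is labelled. Each animal gave 1 library of total RNA, reduced for ribosomal RNA and made from 300 ng with ERCC spike-in RNAs. Both animals belong to 1 group, so each was compared with the other and no condition was compared. Reads from the C57BL/6J and CAST/EiJ alleles are not separated in the tables.

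HSP70 proteins bind short hydrophobic stretches of unfolded proteins and release them in a cycle driven by ATP. J-domain proteins bring clients to HSP70 and start the hydrolysis of ATP, and nucleotide exchange factors such as the HSP110 proteins reset the cycle. HSP90 acts later, on nearly folded clients such as kinases and steroid receptors, and HSP60 with HSP10 forms a closed chamber in the mitochondrial matrix. Each compartment has its own set, and the heat shock factor HSF1 raises the cytosolic inducible members under stress, while the unfolded protein response raises those of the endoplasmic reticulum (ER). In the heart these proteins serve the turnover of sarcomere proteins and the import of proteins into mitochondria.

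The libraries held 41862417 reads assigned to genes in animal 1 and 41790009 in animal 2. Of all genes, 16133 had at least 20 reads over both libraries and were tested with a two-sided exact binomial test of the reads of the 2 libraries, adjusted after Benjamini-Hochberg over all 16133. This test compares 2 libraries and sees counting error only, so differences between animals and between library preparations cannot be told apart. Of all members called below, only Hspa1a and Hspa1b also passed edgeR's exact test with a spread between the animals pooled over genes. That spread was estimated from the same 2 libraries and is shared by all genes. It does not measure how far a single gene varies between animals. Adjusted p-values of the binomial test are to be read with these limits. Levels are given in TPM, the usual unit of transcript level corrected for length and library size, and ratios are of reads scaled by the trimmed mean of M values, animal 2 over animal 1. The median gene was 0.22 higher in animal 2 on the log2 TPM scale but -0.002 on the scaled read scale, so TPM values of animal 2 are generally the higher ones and ratios are taken from reads. The heart markers Myh6, Myl2, Tnni3, Tnnt2 and Actc1 summed to 25473 TPM in animal 1 and 29560 TPM in animal 2, while the 3 lung markers had 4 and 5 reads in all and the 3 testis germ cell markers were at 0.

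The 64 genes together reached 2562 TPM in animal 1 and 3404 TPM in animal 2, which is 0.256% and 0.340% of all TPM. The level was spread unevenly. Cytosolic HSP70, HSP110 and HSP90 genes made up 39.1% of the members' TPM in animal 1 and 41.3% in animal 2. Mitochondrial members followed with 26.3% and 23.2%, and ER members with 17.2% and 18.9%. Cytosolic and nuclear J-domain genes of classes A and B, which share the domain order of bacterial DnaJ or part of it, took 11.1% and 10.9%. The inducible pair Hspa1a and Hspa1b held only 0.0827% and 0.271%. Of the 64 genes, 56 had a mean of at least 1 TPM, 37 of at least 10 TPM and 7 of at least 100 TPM. The other 6 beyond the 58 tested had fewer than 20 reads.

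**Figure D1:**
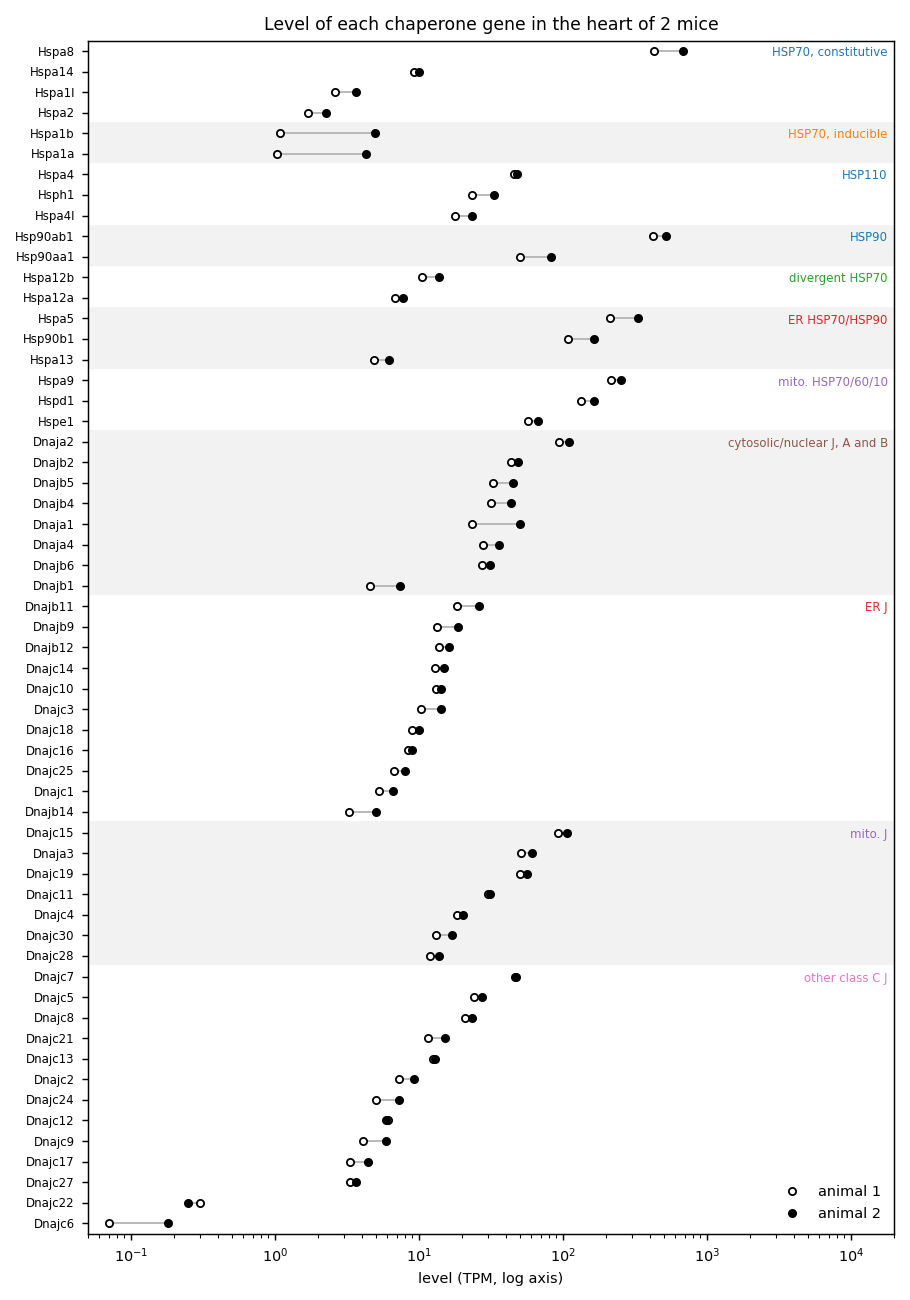
Level in TPM (log axis) of the 58 chaperone genes with at least 20 reads, by class, with animal 1 as open and animal 2 as filled circles. Hspa8, at 429 and 683 TPM, lies farthest to the right, and the widest gaps between the animals among genes above 1 TPM are those of Hspa1a and Hspa1b.

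The inducible cytosolic HSP70 genes, Hspa1a and Hspa1b, are close neighbours on chromosome 17 of mm10, at chr17:34969190-34972156 (gene ENSMUSG00000091971.3) and chr17:34956436-34959238 (gene ENSMUSG00000090877.3), and encode the proteins that accumulate after heat shock or ischaemia. Hspa1a had 111 reads in animal 1 and 410 in animal 2, which is 1.04 and 4.29 TPM. Hspa1b had 108 and 444 reads, which is 1.08 and 4.92 TPM. Both genes were low in animal 1 and several times higher in animal 2. The ratio was 3.50 for Hspa1a, with an exact 95% counting interval of 2.83 to 4.36, and 3.90 for Hspa1b, with an interval of 3.15 to 4.86. The exact binomial test gave adjusted p-values of 8.01e-36 and 1.84e-43.

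Their coding sequences were identical at 99.6% of 1926 aligned bases, so the division of reads between the copies is uncertain and the pair is best read together. Summed, the pair had 219 and 854 reads, a ratio of 3.70 (exact 95% counting interval 3.18 to 4.31). Of the other cytosolic HSP70 genes, Hspa1l was 83.6% identical to Hspa1a in its coding sequence and Hspa8 74.7%, with Hspa2 between them. The spread of read assignment given in the deposited tables was 7.02% and 4.28% of the reads of Hspa1a in the 2 libraries, and at most 1.05% for Hspa1l. Hspa1a was 39th and Hspa1b 31st from the top when the 16133 genes were ranked by ratio.

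The promoters of the pair are shown because the genes moved together. The table of RefSeq promoters on GRCm38.p6, which is mm10, matched 51 of the 64 members with 67 promoters of 300 bases, from 250 before the start to 50 after it. The 250 bases before the start lie at chr17:34972157-34972406 (minus strand) for Hspa1a and at chr17:34959239-34959488 (minus strand) for Hspa1b. Capitals mark pairs of inverted heat shock units, GAANNTTC or TTCNNGAA, where N is any base. Each pattern, though not each matched stretch, reads the same on both strands.
Hspa1a: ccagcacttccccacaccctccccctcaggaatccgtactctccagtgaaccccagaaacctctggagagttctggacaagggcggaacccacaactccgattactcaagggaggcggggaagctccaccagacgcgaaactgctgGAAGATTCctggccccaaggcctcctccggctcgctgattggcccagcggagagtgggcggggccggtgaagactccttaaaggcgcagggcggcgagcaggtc
Hspa1b: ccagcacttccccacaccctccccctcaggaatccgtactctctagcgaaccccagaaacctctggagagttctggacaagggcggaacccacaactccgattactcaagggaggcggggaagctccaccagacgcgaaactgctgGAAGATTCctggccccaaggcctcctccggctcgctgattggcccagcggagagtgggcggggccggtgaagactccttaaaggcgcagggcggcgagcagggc
Over these 250 bases the promoters differed at 3 bases and were identical at 98.8%. Each holds the same single match, 104 bases before the start. Such a pair of units is frequent, in 15.1% of all 32851 promoters of this length and in 14 of the 67 member promoters. Of the 12 members with such a pair, Dnajb6, Dnajc10, Dnajc27 and Hspe1 did not pass the exact binomial test and Dnajc5g was not tested. A run of 3 alternating units, which includes 2 overlapping pairs, was in 0.603% of all promoters and in 6 of the 67 member promoters. These belong to 4 members, Hspd1, Hspe1, Hsph1 and Dnajb6. The matches of Hspd1 and Hspe1, pairs and runs alike, are the same bases read on opposite strands. Hsph1 and Dnajb6 are counted with overlapping promoters that hold the same run. A match describes letters only and is not evidence of binding.

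Among the constitutive cytosolic HSP70 genes, Hspa8 (chr9:40800984-40810087) dominated. It encodes HSC70, the housekeeping chaperone that also uncoats clathrin vesicles, and it had 29770 reads in animal 1 and 40911 in animal 2, or 429 and 683 TPM. Animal 2 was higher, with a ratio of 1.30 (exact 95% counting interval 1.28 to 1.32; exact binomial test, adjusted p = 2.93e-264). The other members of this class were far lower and did not pass the test. Hspa14, whose product works at the ribosome, had 9.29 and 9.99 TPM with a ratio of 0.957. Hspa1l had 2.61 and 3.64 TPM, and Hspa2, best known from male germ cells, had 1.70 and 2.25 TPM, with ratios of 1.19 and 1.13. Their 288 and 182 reads in animal 2 leave wide intervals, 0.995 to 1.42 and 0.905 to 1.41.

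The HSP110 genes, exchange factors for HSP70, differed among themselves. Hsph1, the heat-inducible one, had 2050 and 2798 reads, or 23.4 and 33.3 TPM, and was higher in animal 2 at a ratio of 1.29 (exact binomial test, adjusted p = 4.43e-17). Hspa4 was the most abundant of the class at 46.0 and 48.2 TPM, yet its ratio was 0.973, and Hspa4l, at 17.8 and 23.3 TPM, had a ratio of 1.01. Neither of these passed the test. The Hsph1 promoter, shown for comparison with the inducible pair, covers chr5:149636316-149636565 (minus strand), again with pairs of heat shock units in capitals.
Hsph1: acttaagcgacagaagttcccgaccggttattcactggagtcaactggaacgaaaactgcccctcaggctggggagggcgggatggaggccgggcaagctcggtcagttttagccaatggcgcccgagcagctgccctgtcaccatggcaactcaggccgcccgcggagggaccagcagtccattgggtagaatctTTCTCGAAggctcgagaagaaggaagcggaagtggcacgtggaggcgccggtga
In the table's promoter for this start, a run of 3 alternating units lies past the start, beginning at base 16.

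Both cytosolic HSP90 genes were higher in animal 2, by unequal amounts. Hsp90aa1, the stress-inducible alpha form, had 3839 and 5451 reads, or 50.4 and 82.0 TPM, a ratio of 1.35 (exact 95% counting interval 1.29 to 1.40; exact binomial test, adjusted p = 1.58e-43). Hsp90ab1, the constitutive beta form, stood much higher, at 422 and 520 TPM from 33882 and 38321 reads. Its ratio was only 1.07, with an interval of 1.06 to 1.09 that does not overlap that of Hsp90aa1, and it too passed the exact binomial test at an adjusted p of 6.96e-19. The beta form was thus the main HSP90 transcript in each animal.

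Class A and B J-domain genes of the cytosol and nucleus, the general partners of HSP70, had 8 tested members, of which 5 were higher in animal 2. Dnaja1, a class A partner of HSC70, had 1549 and 2480 reads, or 23.3 and 50.2 TPM. This was the highest ratio outside the inducible pair, 1.52 (exact 95% counting interval 1.42 to 1.62; exact binomial test, adjusted p = 1.01e-36). Dnajb1, the main inducible HSP40, was low, with 488 and 712 reads or 4.54 and 7.37 TPM, and followed at 1.38 (interval 1.23 to 1.56; adjusted p = 9.62e-07 by the same exact test). In both genes animal 2 was clearly above counting error. Dnajb4 and Dnajb5, close relatives of Dnajb1, had 31.4 and 43.3 TPM and 32.5 and 45.3 TPM, each with a ratio of 1.17. Dnaja4 had 27.9 and 36.0 TPM and a ratio of 1.12.

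The other 3 tested genes of this class stayed near 1. Dnaja2, the most abundant, had 5689 and 6041 reads or 93.4 and 110 TPM, with a ratio of 1.01 and an interval of 0.971 to 1.04. Dnajb2, a client sorter with ubiquitin-binding motifs, had 43.4 and 48.6 TPM with a ratio of 0.986. Dnajb6, which holds back protein aggregation and is mutated in a limb-girdle muscular dystrophy, had 27.6 and 31.2 TPM with a ratio of 0.982. Dnajb13, Dnajb7 and Dnajb8 were at 0 reads in both libraries and Dnajb3 had 2 and 1. These 4 genes are best known from testis, and the 3 testis germ cell markers were at 0 too. A count of 0 allows up to 3 reads, which is 0.0717 CPM (reads scaled to the library as in TPM, but without length) in animal 1 and 0.0718 CPM in animal 2, for counting error only.

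In the ER, the HSP70 and HSP90 members carried most of the level and 2 of the 3 were higher in animal 2. Hspa5 (chr2:34771970-34777547), which encodes BiP, the HSP70 of the ER lumen, had 17826 and 24837 reads, or 211 and 331 TPM. Its ratio was 1.32 (exact 95% counting interval 1.30 to 1.35; exact binomial test, adjusted p = 3.40e-176). Hsp90b1, which encodes GRP94, had 10800 and 14323 reads, or 109 and 164 TPM, a ratio of 1.26 (interval 1.23 to 1.29; adjusted p = 2.81e-70 by the same exact test). Hspa13, a small HSP70 of microsomes, was at 4.85 and 6.16 TPM and did not pass at a ratio of 1.06.

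The promoters of Hspa5 and Hsp90b1 are shown because both genes were higher together and both hold the ER stress element, the letters CCAAT and CCACG with 9 bases between them, searched on both strands. They lie at chr2:34771840-34772089 (plus strand) for Hspa5 and chr10:86705445-86705694 (minus strand) for Hsp90b1, with the elements in capitals.
Hspa5: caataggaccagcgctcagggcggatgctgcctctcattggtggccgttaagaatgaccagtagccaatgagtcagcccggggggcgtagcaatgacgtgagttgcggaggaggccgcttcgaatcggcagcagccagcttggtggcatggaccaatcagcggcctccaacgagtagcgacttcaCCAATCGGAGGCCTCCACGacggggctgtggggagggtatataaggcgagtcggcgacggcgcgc
Hsp90b1: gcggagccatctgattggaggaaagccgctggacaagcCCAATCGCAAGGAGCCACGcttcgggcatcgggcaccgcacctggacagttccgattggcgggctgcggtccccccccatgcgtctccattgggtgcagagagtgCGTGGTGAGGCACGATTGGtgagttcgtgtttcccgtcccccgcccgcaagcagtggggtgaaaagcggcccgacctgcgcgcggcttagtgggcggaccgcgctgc
Hspa5 has 1 such element, beginning 65 bases before its start. Hsp90b1 has 2, beginning 212 and 107 bases before the start, of which the nearer one is on the opposite strand. The element was in 0.119% of all promoters and, among members, only in those of Hspa5, Hsp90b1 and Dnajc3 of the 51 matched genes. As with the heat shock units, this reports letters and not use. The promoters printed here are all labelled with genes that were higher in animal 2, and a link between letters and ratio was not tested.

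The 11 ER J-domain genes were all measured, between 4.17 and 22.2 TPM on average, and 3 were higher in animal 2. Dnajb11 (ERdj3), a soluble partner of BiP, had 1237 and 1589 reads, or 18.3 and 26.2 TPM, a ratio of 1.22. Dnajb9 (ERdj4), which hands unfolded proteins to degradation, had 13.4 and 18.8 TPM and a ratio of 1.20, and Dnajc3 (P58IPK) had 10.3 and 14.3 TPM and a ratio of 1.18. Their adjusted p-values by the exact binomial test were 5.97e-06, 1.02e-04 and 1.24e-06. All 3 proteins work with BiP on the lumenal side of the ER. This place is not particular to them: Dnajc10, also of the lumen, had a ratio of 0.924 and did not pass.

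The remaining 8 ER J-domain genes did not pass the test. They included Dnajb12, a membrane protein whose J domain faces the cytosol, at 13.8 and 16.2 TPM with a ratio of 0.970, Dnajc14 at 13.0 and 15.0 TPM with 1.08, and Dnajb14 at 3.27 and 5.07 TPM with 1.10. Dnajc10 (ERdj5), a disulfide reductase of the lumen, had 1865 and 1818 reads and a ratio of 0.924. Dnajc18, a membrane member, had the lowest ratio among all members with at least 200 reads, 0.901 from 1243 and 1181 reads, with an adjusted p of 0.0793 in the exact binomial test. Dnajc1, Dnajc16 and Dnajc25 lay between 0.992 and 1.03.

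Mitochondrial members were abundant and close to equal between the animals. Hspa9 (mortalin), the HSP70 that pulls proteins through the inner membrane, had 22813 and 24156 reads, or 214 and 251 TPM, a ratio of 1.00 with an exact 95% counting interval of 0.986 to 1.02. Hspd1 (HSP60) had 11338 and 12429 reads, or 134 and 164 TPM. Its ratio of 1.04 (interval 1.01 to 1.07) passed the exact binomial test at an adjusted p of 0.0306, and it was the only one of 10 mitochondrial genes to pass. When libraries were scaled by total gene reads, which raised the log2 ratio of the median gene to 0.077, Hspa9, Dnaja3 and Dnajc30 passed too. Hspe1 (HSP10), its co-chaperonin, had 1441 and 1512 reads, or 57.5 and 67.1 TPM, and a ratio of 0.995.

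Hspd1 and Hspe1 are transcribed away from each other. The 215 bases between their RefSeq starts, chr1:55087933-55088147 (minus strand) in the direction of Hspd1, are shown because they hold the longest run of heat shock units printed here, in capitals.
Hspd1: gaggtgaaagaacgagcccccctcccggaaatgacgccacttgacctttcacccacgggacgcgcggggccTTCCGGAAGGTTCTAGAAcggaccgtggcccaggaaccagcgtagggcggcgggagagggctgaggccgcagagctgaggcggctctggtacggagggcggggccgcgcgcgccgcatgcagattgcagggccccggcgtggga
The run joins 3 overlapping pairs and begins 144 bases before the RefSeq start of Hspd1. No heat shock unit pair was found elsewhere in the printed stretch. In GENCODE M21, the annotation behind the counts, Hspd1 lies at chr1:55077835-55088243 and Hspe1 at chr1:55088132-55091307. The genes overlap there, and the printed stretch lies inside Hspd1. The printed stretches of Hspa5, Hsp90b1 and Hsph1 also run into their genes as annotated there, so distances to a start hold for RefSeq starts only.

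The 7 mitochondrial J-domain genes ranged from 12.8 to 99.3 TPM on average, and none passed the test in either direction when scaled by the trimmed mean of M values. Dnajc15 and Dnajc19, subunits of the import motor at the inner membrane, had 91.8 and 107 TPM and 50.2 and 56.7 TPM, with ratios of 0.980 and 0.958. Of the Dnajc15 TPM, 96.8% came from transcripts not annotated as coding. Dnajc19 is mutated in a dilated cardiomyopathy with ataxia. Dnaja3 (Tid1), a class A protein of the matrix, had 51.4 and 60.6 TPM with a ratio of 1.01. Dnajc11, of the inner membrane junction complex, had 30.3 and 31.2 TPM with 0.985, and Dnajc4 had 18.4 and 20.1 TPM with 0.947. Dnajc30 had the highest ratio of the 7, 1.10, at 13.0 and 16.9 TPM, and Dnajc28 had 0.989.

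The 15 other class C J-domain genes, which share only the J domain and have specialised tasks, held 144 and 163 TPM. Dnajc7 (TPR2), which passes clients between HSP70 and HSP90, was highest at 46.1 and 46.8 TPM with a ratio of 0.965. Dnajc5, the cysteine string protein of secretory vesicles, had 24.0 and 27.4 TPM with 0.988, and Dnajc8, of the spliceosome, had 20.7 and 23.5 TPM with 0.932. Dnajc21, which acts in ribosome assembly, had 11.6 and 15.2 TPM, and Dnajc13, of endosomes, had 12.4 and 12.9 TPM. None of the 13 tested passed, including the low outer ratios of Dnajc12 (0.922) and Dnajc27 (0.938). Dnajc5g was at 0, Dnajc5b had 0 and 2 reads, and Dnajc6, the neuronal auxilin, and Dnajc22 had 12 to 13 reads in each library, with counting intervals that reach past 2-fold in both directions.

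Of the divergent HSP70 genes, Hspa12b, known from endothelial cells, had 1029 and 1334 reads, or 10.5 and 13.8 TPM, and a ratio of 1.23 (exact binomial test, adjusted p = 1.67e-05). Hspa12a had 6.82 and 7.78 TPM and a ratio of 0.998. The endothelial markers Pecam1, Cdh5 and Kdr moved alongside Hspa12b: 3 of 3 were higher in animal 2, and they summed to 99.2 and 132 TPM. The part of endothelial cells in the Hspa12b ratio was not tested. In bulk tissue, fewer cells of a type and less RNA per cell cannot be told apart.

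**Figure D2:**
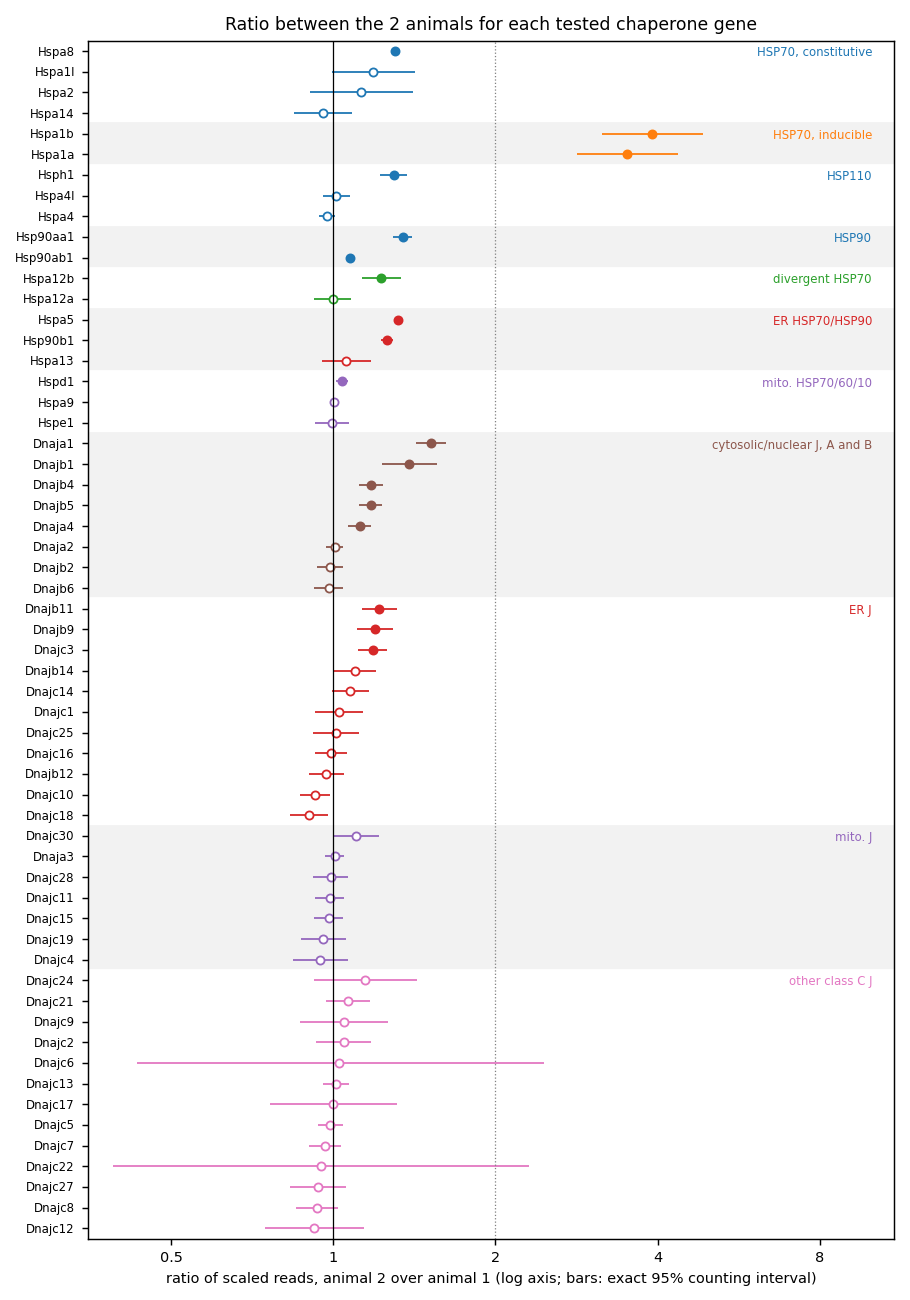
Ratio of scaled reads, animal 2 over animal 1 (log axis), for the 58 tested chaperone genes by class, with exact 95% counting intervals and with filled circles for an adjusted p below 0.05. Hspa1a and Hspa1b, at 3.50 and 3.90, are the only points right of the dotted line at 2, and 17 of the 18 filled points lie outside the mitochondrial classes.

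Of the 58 tested chaperone genes, 18 (31.0%) were higher in animal 2 at an adjusted p below 0.05 by the exact binomial test, where 6.60% of all tested genes were. None was higher in animal 1, where 4.75% of all tested genes were. With a difference of at least 2-fold required as well, 2 members (3.45%) were higher in animal 2 against a background of 0.483%, and none was higher in animal 1 against 0.893%. The 2 members past 2-fold are the near-identical Hspa1a and Hspa1b. The division of reads between them is uncertain, so they are not fully separate observations. The members have more reads than most genes, with a median of 2804 reads over both libraries against 719, and more reads make small differences callable. Among genes with at least 2000 reads, a limit added after the data were seen, 15 of 36 members (41.7%) were higher in animal 2 against 13.2% of all such genes, and 0 were higher in animal 1 against 8.26%. The median log2 ratio was 0.04 over the 58 members and -0.002 over all tested genes, and 37 members lay above 0 and 21 below.

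These counts rest on counting error alone. When edgeR's exact test was given 1 spread shared by all genes and estimated from these 2 animals, a coefficient of variation of 0.0829, only Hspa1a and Hspa1b passed, at adjusted p-values of 8.38e-13 and 4.06e-15 (over all alternatives, 2.36e-40 to 8.38e-13 and 2.63e-47 to 4.06e-15), and the other 16 calls ended. Under that test 0.459% of all tested genes were higher in animal 2.

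By compartment, the differences fell unevenly among the members. Both genes of the inducible HSP70 pair were higher in animal 2, with a median log2 ratio of 1.88. The inducible Hsph1, Hsp90aa1 and Dnajb1 are counted in the cytosolic groups, with log2 ratios of 0.37, 0.43 and 0.47. Of the 9 cytosolic HSP70, HSP110 and HSP90 genes 4 were higher in animal 2 (median 0.17). Among the 8 tested cytosolic class A and B J-domain genes 5 were (median 0.20). Of the 14 ER genes 5 were (median 0.09), of the 10 mitochondrial genes 1 was (median -0.01), and of the 13 other class C genes 0 were (median 0.00). The share of all tested genes higher in animal 2 was 6.60%, or 13.2% of those with at least 2000 reads. The mitochondrial count is near that share. All calls outside the inducible pair ended under the pooled spread. Summed over genes, the ER reads gave a ratio of 1.21 (exact 95% counting interval 1.20 to 1.23) and the mitochondrial reads 1.01 (0.998 to 1.02), so the intervals for counting error do not overlap. The ER sum is carried by Hspa5 and Hsp90b1: the 11 ER J-domain genes alone gave 1.05 (1.03 to 1.08). With 1 library per animal the difference between compartments has no replicate check.

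**Figure D3:**
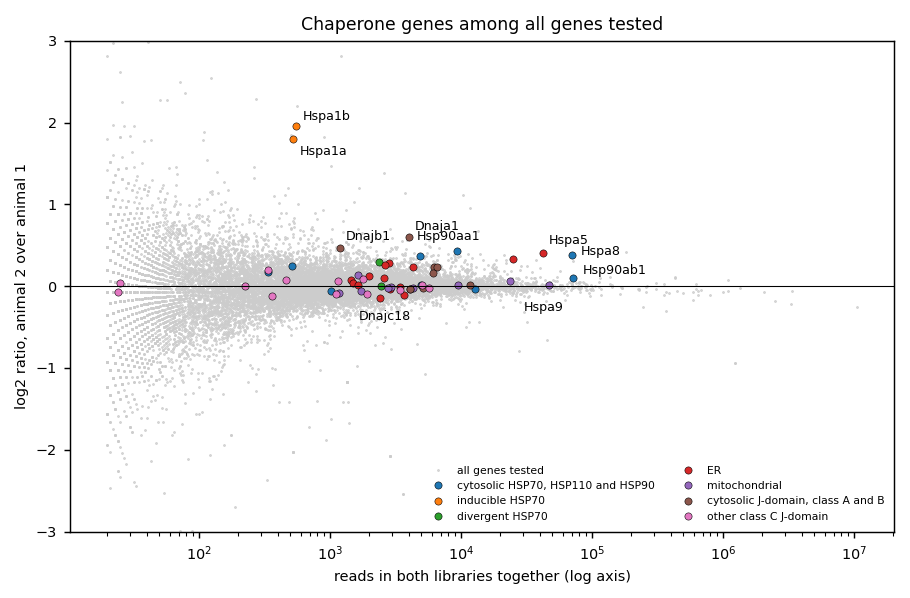
Log2 ratio of scaled reads, animal 2 over animal 1, against reads in both libraries (log axis) for the 16133 tested genes in grey and the members in colour by compartment; 35 genes beyond 3 in either direction are not drawn. Hspa1b and Hspa1a lie near 2 at about the same read number, and the mitochondrial members lie close to the line at 0.

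Genes that work with the chaperones were taken from 7 lists with 56 genes, of which 55 could be tested. Of these, 20 were higher in animal 2 at an adjusted p below 0.05 by the exact binomial test, 1 was higher in animal 1, and none passed 2-fold. The share of all tested genes that passed was 6.60% toward animal 2 and 4.75% toward animal 1, or 13.2% and 8.26% of those with at least 2000 reads. The lists share members and were chosen with earlier results of these data known, so their counts are descriptive only. Of the ER partners, 9 of 11 were higher in animal 2, with a median log2 ratio of 0.33. Calr, the lectin chaperone calreticulin, had 107 and 155 TPM and a log2 ratio of 0.32, and Canx, its membrane relative, had 108 and 142 TPM and 0.09. Manf, a BiP-binding protein induced by ER stress, had 45.3 and 78.2 TPM and 0.59, and Pdia3 and Pdia6, disulfide isomerases, had 0.35 and 0.27. Hyou1, the HSP110 of the ER, chosen after its values were seen, had 22.7 and 32.5 TPM and 0.38.

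Of the mitochondrial partners, 0 of 9 passed, with a median log2 ratio of -0.05. Trap1, the mitochondrial HSP90, had 50.8 and 60.8 TPM and a log2 ratio of 0.04, and Pam16, a partner of the import motor, had 45.9 and 52.2 TPM and -0.07. The proteases Lonp1 and Clpx, at 46.5 and 41.5 TPM on average, had -0.04 and -0.07. Timm44, the membrane anchor of mortalin, had -0.02.

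Cytosolic partners gave mixed results. Among exchange factors and other HSP70 co-chaperones, 3 of 10 were higher in animal 2 (median log2 ratio 0.01), among them Bag3, at 85.9 and 114 TPM and a log2 ratio of 0.18, which directs chaperone-assisted autophagy of sarcomere proteins. Bag1, at 97.1 and 116 TPM, and Bag6, at 81.6 and 95.1 TPM, did not pass, with 0.02 and 0.00. Among HSP90 co-chaperones, 4 of 13 were (median 0.12), including Fkbp4, the most abundant, at 125 and 158 TPM and 0.10. Unc45b, the myosin chaperone of striated muscle, had 61.4 and 73.6 TPM, did not pass, and had 0.03.

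Of 12 heat shock induced genes outside the families, 8 were higher in animal 2, with a median log2 ratio of 0.15. Of these 8, Bag3, Stip1, Fkbp4 and Chordc1 are also counted among the co-chaperones above. Serpinh1, a collagen chaperone chosen after its values were seen, had 77.9 and 121 TPM and a log2 ratio of 0.39, and Hspb1, a small heat shock protein, had 130 and 191 TPM and 0.32. Cryab, the small heat shock protein that dominates in heart muscle, had 1018 and 1224 TPM and only 0.05. The heat shock factors did not pass (0 of 4 tested): Hsf1 had 15.9 and 18.8 TPM and 0.05, and Hsf2 had 5.59 and 5.91 TPM and -0.15.

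**Figure D4:**
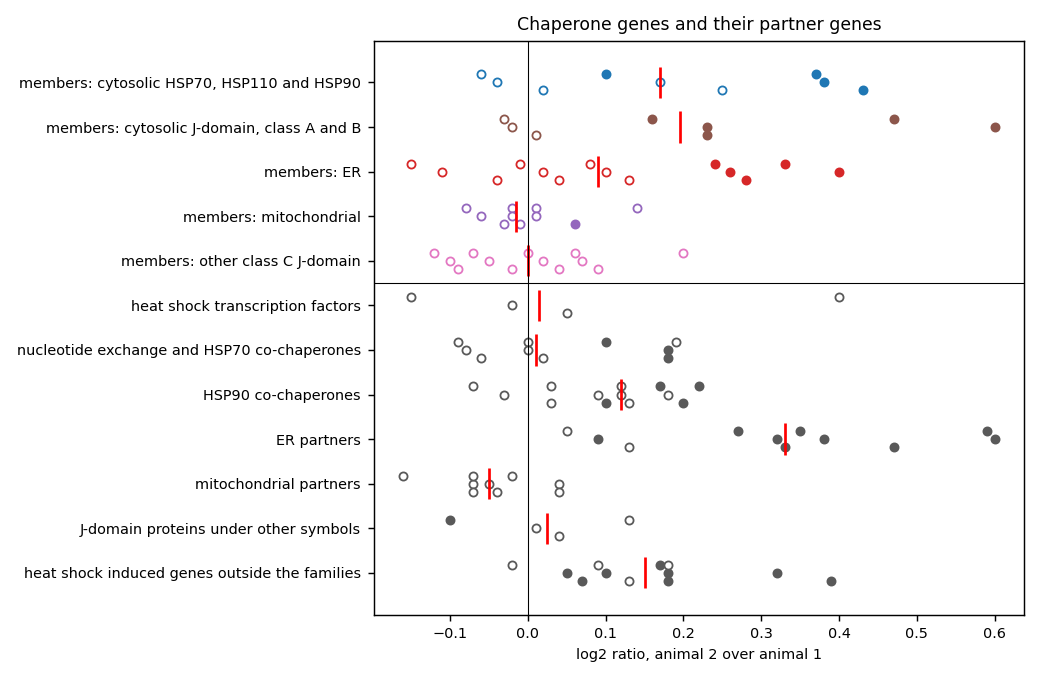
Log2 ratio, animal 2 over animal 1, for chaperone genes by compartment (above the line; the inducible pair and the divergent HSP70 genes are left out) and for partner genes by list (below it). Filled points passed the exact binomial test and red bars are medians; the ER partners centre on 0.33 and the mitochondrial partners on -0.05.

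Markers of some other cell types were higher in animal 2 as well. The adipocyte markers summed to 23.2 and 59.8 TPM, with 4 of 5 tested markers higher in animal 2 and 3 of them by 2-fold or more. Of the fibroblast markers 3 of 3 were higher in animal 2 (166 and 218 TPM), and of the mural cell markers 3 of 3 (153 and 216 TPM), while 0 of 3 macrophage markers passed (36.7 and 49.0 TPM). Of the 5 cardiomyocyte markers, Myh6 and Tnnt2 were higher in animal 1 and Actc1 in animal 2, with a median log2 ratio of -0.01. Of 7 immediate early genes, which respond within minutes to handling or stress, Jun and Atf3 were higher in animal 2, Atf3 by 2.16-fold, and the other 5 did not pass. The median log2 ratio of the 7 was 0.01, with Fos at -0.22 and Egr1 at -0.18. The marker lists, too, were chosen with earlier results of these data known. The part of these cells or of such a response in the chaperone ratios was not tested.

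Transcripts were compared for the 37 members with at least 10 TPM, using the first quantification, from alignments, and the second, from matching reads to an index without alignment. The same transcript was largest in both for 28 genes and a different one for 9: Dnaja2, Dnajb12, Dnajb2, Dnajb4, Dnajc11, Dnajc13, Dnajc19, Dnajc5 and Hsph1. In the first quantification the largest transcript held over 80% of gene TPM in 18 genes, for example Hspa9-201 at 97.1% and Hspd1-201 at 96.7%. No transcript was above 50% there in 7 members: Dnaja1, Dnajb12, Dnajc5, Dnajc7, Hspa4l, Hspa8 and Hsph1. In the second, Hspa4l-201 held 50.5%, while Dnajb2, Dnajc11, Dnajc13, Dnajc14 and Dnajc4 had no transcript above 50%. Hspa8-201 held 48.7% and Hspa8-202 31.9% in the first quantification, against 70.7% and 0.285% in the second, so the split between these coding transcripts depends on the method.

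Some of the level came from transcripts not annotated as coding. The largest transcript of Dnajc15 was Dnajc15-203, a processed transcript of 419 bases, with 64.9% of the gene's TPM and 64.6% in the second quantification. Dnajc15-201, a nonsense-mediated decay form, held 31.9%. Transcripts not annotated as coding thus held 96.8% of the TPM of Dnajc15 and 66.9% of its reads in the first quantification. Dnajc19-205, a retained intron form, held 52.6% in the first and 0% in the second. In Dnaja2, the retained intron form Dnaja2-202 of 507 bases held 48.7% of TPM but 12.1% of reads, because a TPM divides by length, and 59.3% in the second quantification. Dnaja1-206, a processed transcript, was estimated at 5.18 and 17.0 TPM and held 0% in the second. No test was made on transcripts.

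**Figure D5:**
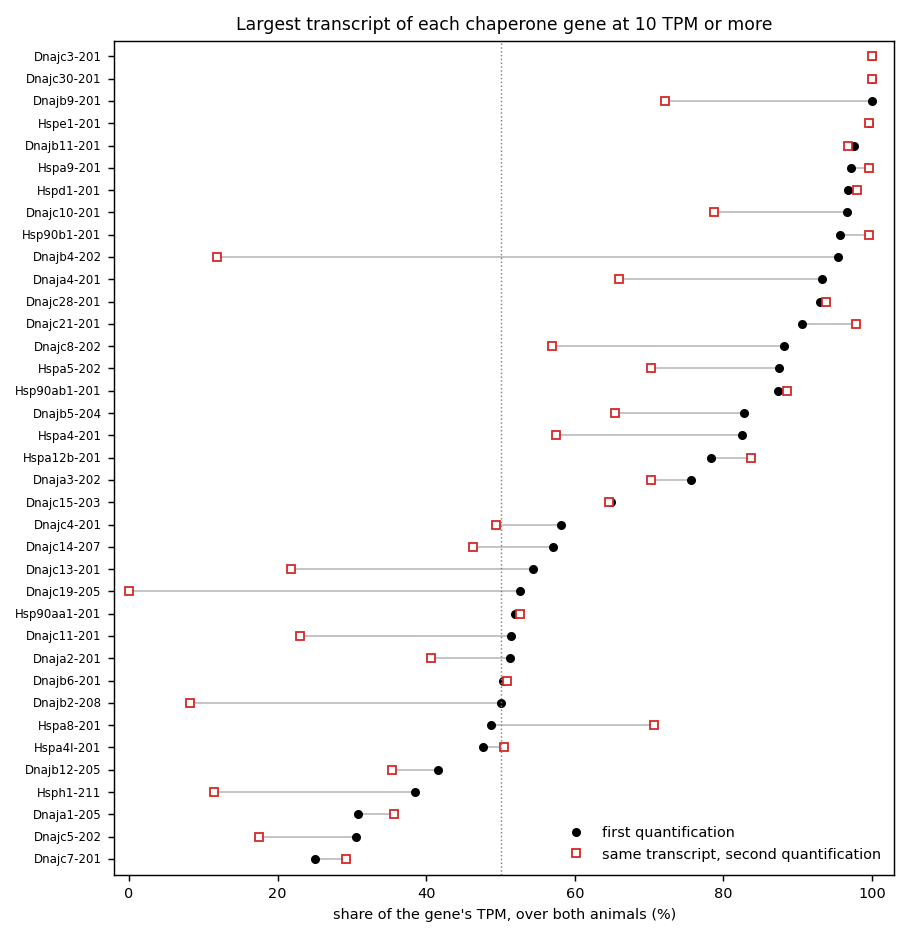
Share of the gene's TPM over both animals (percent) held by the largest transcript of each of 37 chaperone genes, in the first quantification (black circles) and for the same transcript in the second (red squares). Mitochondrial Hspa9, Hspd1 and Hspe1 keep shares above 96%, and Dnajb4-202 drops from 95.5% to 11.9%.

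Some members share exon bases with a neighbour. The exons of 26 members overlap those of another gene, on the opposite strand for 23 and on the same strand for 8, and no source here says whether counting used the strand. The overlap is 1778 bases between Hspa1l and the antisense gene Gm10501, 1581 bases between Dnaja4 and Wdr61, 608 bases between Dnaja1 and Smu1, and 112 bases between Hspd1 and Hspe1. Hspa1a shares 564 bases with Gm20481, which had 0 and 1 reads. Dnajb13 shares 305 bases on the opposite strand with Ucp2, which had 7823 and 7790 reads, and was itself at 0. The uncertainty of assignment stated in the tables was below 10% for all members, and it was 1% or more for 6.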

How the data were processed

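Total RNA from 2 mouse hearts was measured by RNA-seq, 1 library per animal, on mm10 with GENCODE M21. The authors deposited estimated counts (expected counts) and TPM per gene and transcript, with the percent of each gene's TPM held by a transcript, in RSEM's layout per the file headers. A second deposited table per library has estimated counts and TPM in kallisto's layout. No header or label names an aligner or a version. Expected counts were rounded. Library sizes were scaled with edgeR 4.0.16 (trimmed mean of M values). The 16133 genes with at least 20 reads were tested with a two-sided exact binomial test (scipy 1.17.1), Benjamini-Hochberg adjusted, with a threshold of 0.05, and 0.5 reads were added before log2 ratios. The code was tested on simulated data. Levels are means with SD over 2 animals, or both values. Named were the 5 highest members of each class, those past 2-fold, the 6 highest and 6 lowest ratios with at least 200 reads, and uncertain copies. Alternatives were other scaling (DESeq2 1.42.0 size factors among them), filters, prior count, fold minimum, the second table and a pooled spread. Members, classes, partner and marker lists were chosen with earlier results of these data known. Values of some partner genes are not reported here.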

Additional observations from a re-analysis of the deposited data

Results flagged for a closer look

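Signal was also seen in the pseudogenes left out by the choice of symbols. Hspd1-ps3 had 53 reads in animal 1 and 59 in animal 2, and Hspd1-ps4 had 48 and 30, each above the 3 reads that a count of 0 allows. Hspd1 itself had 11338 and 12429 reads. The second quantification gave Hspd1-ps3 only 7.22 reads in each library and Hspd1-ps4 57.0 and 37.0, and it gave Hspa9-ps1 102 and 115 reads where the first gave 4 and 1. Of the other 11 left-out pseudogenes, none had more than 3 reads in either library in the first quantification.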

How the results depend on the processing

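The number of members higher in animal 2 was 18 under library scaling by DESeq2, no filter, at least 200 reads, the second quantification, genes with an assignment spread below 10% and a prior count of 2, and 24 under scaling by total gene reads, which moved the median log2 ratio of all genes to 0.077 and the share of all tested genes higher in animal 2 from 6.60% to 18.6% (members 41.4%). It was 2 with edgeR's pooled spread. The number past 2-fold was 2 and the number higher in animal 1 was 0 under each of these, and 3 members were higher at a minimum of 1.5-fold. Of the 18 called genes none changed direction, and 16 lost the call, under the pooled spread only. Of the 40 others, 20 changed sign under some setting and 6 passed, all under scaling by total gene reads: Hspa9, Dnaja3, Dnajc30, Dnaja2, Dnajb14 and Dnajc14. The log2 ratios that changed sign under that scaling were Dnajb12 0.036, Dnajb2 0.059, Dnajb6 0.053, Dnajc11 0.057, Dnajc15 0.051, Dnajc16 0.067, Dnajc19 0.017, Dnajc22 0.002, Dnajc28 0.064, Dnajc4 0.000, Dnajc5 0.062, Dnajc7 0.028, Hspa12a 0.076, Hspa14 0.017, Hspa4 0.039, Hspe1 0.072. Under the second quantification they were Dnaja2 -0.008, Dnajc17 -0.18, Dnajc19 0.047, Dnajc5 0.006, Dnajc6 -0.066, Dnajc9 -0.029, Hspa12a 0.001, Hspe1 0.015, and at 200 reads Dnajc17 -0.004. The second quantification gave 3799 TPM for all members, 695 for the ER, 949 for mitochondria and 470 for cytosolic class A and B J-domain genes, with shares of 37.7% for cytosolic HSP70, HSP110 and HSP90 and 12.4% for the J-domain genes. TPM rescaled to nuclear protein-coding genes without globins gave 8021 for all members, 3231 for cytosolic HSP70, HSP110 and HSP90, 14.6 for the inducible pair, 1452 for the ER, 1974 for mitochondria and 882 for the J-domain genes. The causes of these shifts were not tested, except that rescaling divides by a smaller total. With either animal left out, the summed TPM is the other animal's, 2562 to 3404. Leaving out an animal gives no comparison between animals. No paired analysis was possible because there is 1 group. Depth limits genes with few reads: for Dnajc6 the counting interval of the ratio ran from 0.432 to 2.46.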
